A study of Bos taurus with 27 samples.

Results

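The colon of 10 male Holstein calves born to multiparous cows (C) was compared at 51 h of age, out of 27 calves sequenced in all. In 5 of them (TRT12_C) the first colostrum was fed at 12 h after birth, and in the other 5 (TRT0_C) it was fed at birth. All calves were tube-fed the same pooled, pasteurised colostrum at a volume set by birth weight, and milk replacer followed on a schedule counted from that meal, so the delay of colostrum and the delay of milk replacer cannot be told apart. Dam parity came from the study's table of calves, and the feeding time from the sample labels. The remaining calves had their first colostrum at 6 h (5 calves of multiparous cows, TRT6_C) or were born to primiparous heifers (H), among them 4 calves fed at birth (TRT0_H) and 4 fed at 12 h (TRT12_H). RNA of a rinsed, frozen segment of the colon wall was sequenced in each calf, and the question was whether a 12 h delay of colostrum leaves a mark on colonic gene expression.

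Calves are born almost without circulating antibody, because the placenta of cattle does not pass immunoglobulin, and they depend on colostrum for it. Colostrum also carries fat, lactose, growth factors and antimicrobial proteins, and it is the first food to reach a gut that is being colonised by microbes. The neonatal colon absorbs water and electrolytes, makes mucus and renews its epithelium from crypt stem cells, while immune cells are still settling in its wall. The tissue holds epithelium, smooth muscle, fibroblasts, vessels, nerves and immune cells, so a difference in bulk RNA can come from fewer cells of a type or from less RNA per cell, which cannot be told apart here.

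Gene counts summed to between 1721538 and 2473396 per calf in TRT0_C and between 1364047 and 3129171 in TRT12_C, so 3 counts stood for 0.959 to 2.20 CPM (counts scaled to the library size) and low genes are imprecise. These totals are far below the number of reads per sample that the paper reports. The 10 highest genes took 32.8% to 43.4% of the counts in TRT0_C and 31.3% to 43.0% in TRT12_C, and levels are therefore given as CPM over library sizes scaled by TMM factors. Of 24616 genes in the table, 14616 reached 1 CPM or more in at least 5 of the 10 calves and were tested. Only 3835 of these could be paired with a symbol, and they were the more abundant ones, with a median mean level of 68.3 CPM against 14 CPM for the rest. Colon markers were present in both groups, for example 649 and 841 CPM on average of the intestinal cadherin CDH17 in TRT0_C and TRT12_C. The run names in the labels divided the groups unevenly. Run HI.3902.007 held TRT0_C replicates 2, 4 and 5 and TRT12_C replicates 1 and 3, while the other 3 TRT12_C calves came from run HI.3902.006 and the other 2 TRT0_C calves from run HI.3966.001. Among these 10 calves, run and feeding time can be told apart only within run HI.3902.007, and the value within that run is given beside the main results. Nothing in the labels links calves by litter, pen or day, and p-values measure the spread between these calves.

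A total of 2 genes passed the test (an adjusted p of at most 0.1 and a fold of at least 1.2), both with more RNA in TRT12_C. The calgranulin S100A12 (ENSBTAG00000012638), a calcium-binding alarmin best known from neutrophils, had 42.7, 20.6, 30, 13.5 and 24.2 CPM in TRT0_C replicates 1 to 5. In TRT12_C it had 79.2, 57.8, 76.2, 77 and 79.7 CPM. Every TRT12_C calf was above every TRT0_C calf, and the mean rose from 26.2 ± 11 to 74 ± 9.14 CPM (SD, n = 5 each). Its log2 fold change was 1.5 (SE 0.22) with an adjusted p of 0.031 in edgeR's quasi-likelihood test, with p-values adjusted by the Benjamini-Hochberg method over all genes tested. The calves fed at 6 h had 19.5 to 56.7 CPM in TRT6_C, below every TRT12_C calf and overlapping TRT0_C, and within run HI.3902.007 the log2 fold change was 2.02. In H calves S100A12 had 24.7 to 96.4 CPM in TRT0_H and 16.3 to 118 CPM in TRT12_H, a log2 fold change of 0.33 (SE 0.43), and the difference between the C and H contrasts did not pass (1.16, SE 0.58, edgeR adjusted p = 0.999).

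The other gene, ENSBTAG00000045632, has no symbol in the tables at hand. Its raw counts were 3, 19, 5, 1 and 4 in TRT0_C replicates 1 to 5 and 2566, 8793, 404, 1368 and 7 in TRT12_C. It was thus close to absent in all TRT0_C calves and abundant in 4 of 5 TRT12_C calves, while TRT12_C replicate 5 had 5.64 CPM, inside the TRT0_C range of 0.397 to 7.84 CPM. The fitted log2 fold change was 8.40 (SE 1.17, edgeR adjusted p = 0.0238), and it was 7.62 within run HI.3902.007. Wide gaps between calves of 1 group were seen elsewhere too, since TRT6_C spanned 1.89 to 1679 CPM, TRT0_H 1.54 to 119.6 CPM and TRT12_H 1.72 to 237 CPM.

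These 2 genes were 0.0137% of the genes tested, and S100A12 alone was 0.0261% of those with a symbol. At an unadjusted p under 0.05 there were 1666 genes (11.4% of those tested), 891 with a higher level in TRT12_C (6.1%) and 775 with a lower one (5.3%). The groups did not overlap in 373 genes (2.55%), 182 of them with TRT12_C above (1.25%) and 191 with TRT12_C below (1.31%), but on library totals without TMM factors it was 97 above and 224 below. The split of the 1666 genes depended on the scaling too, because library totals gave 438 higher and 1029 lower genes and moved the median log2 fold change of all genes from −0.0047 to −0.082. Single calves decided the number of calls. Without TRT12_C replicate 4 it was 206 (102 higher, 104 lower), without TRT0_C replicate 3 it was 5, without TRT12_C replicate 2 it was 3, and without TRT0_C replicate 5 it was 0 by edgeR, with 1335 genes at an unadjusted p under 0.05. Only 1 gene was left without TRT0_C replicate 2 or without TRT12_C replicate 1, 3 or 5. S100A12 lost its call without TRT0_C replicates 2 or 5 or TRT12_C replicates 1, 3 or 5 (edgeR adjusted p = 0.142 to 0.172), and ENSBTAG00000045632 lost it without TRT0_C replicate 5 (edgeR adjusted p = 0.155) and with robust dispersion (edgeR adjusted p = 0.209). ENSBTAG00000045632 also lost it with the run name as a term among 27 calves (edgeR adjusted p = 0.169). With that term among the 10 calves it kept the call (edgeR adjusted p = 0.0468). A fit of all 27 calves called neither (edgeR adjusted p = 0.446 for S100A12 and 0.399 for ENSBTAG00000045632), with 0 genes called and 1423 at an unadjusted p under 0.05. The 5 calves of run HI.3902.007 alone, 2 of TRT12_C and 3 of TRT0_C, gave 1181 calls by the same edgeR test (674 higher, 507 lower). Values within that run rest on these few calves of the same data.

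**Figure D1:**
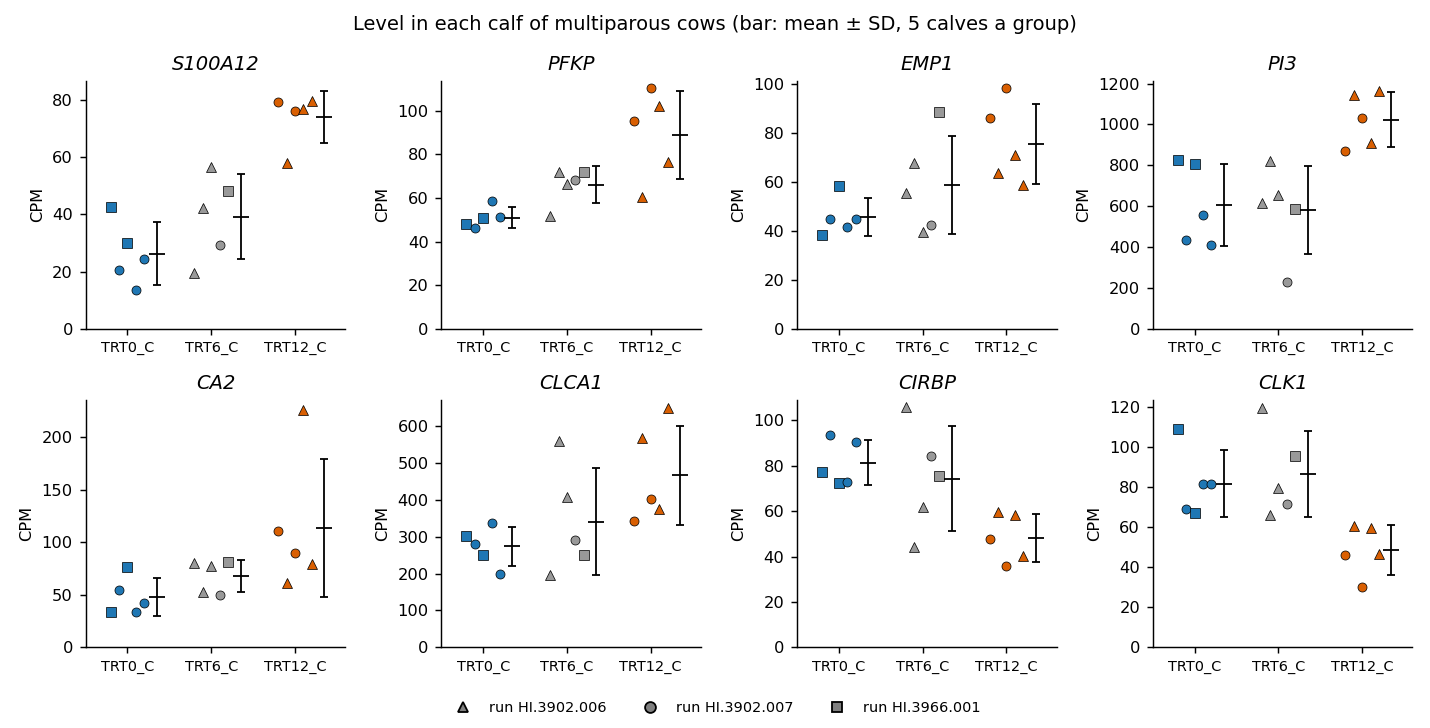
Level of 8 named genes in CPM (y axis, linear, starting at 0) in each calf of multiparous cows by feeding time of the first colostrum (x axis), with the sequencing run as the marker and the mean ± SD of 5 calves as the bar. S100A12, PFKP, EMP1, PI3 and CLCA1 were above the TRT0_C range in every TRT12_C calf, CIRBP and CLK1 were below it, and CA2 overlapped.

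Next to S100A12, the 11 named genes with the smallest p among those whose TRT12_C calves all lay above the TRT0_C calves had adjusted p of 0.236 to 0.256 in edgeR's quasi-likelihood test and so did not pass. PFKP, the platelet-type phosphofructokinase that commits sugar to glycolysis, had 48.1, 46.2, 50.6, 58.7 and 51.1 CPM in TRT0_C and 95.3, 60.4, 110.5, 102 and 76.5 CPM in TRT12_C. Its log2 fold change was 0.80 (SE 0.16) and 0.97 within run HI.3902.007, and the TRT6_C calves had 51.6 to 72.1 CPM. EMP1, a tetraspan protein of epithelial membranes, had 38.2, 45, 58.3, 41.6 and 44.8 CPM against 86.1, 63.6, 98.1, 71 and 58.8 CPM, a log2 fold change of 0.73 (SE 0.16). The lowest TRT12_C calf was thus only just above the highest TRT0_C calf for EMP1, and TRT12_C replicate 2 was the lowest of its group for PFKP. The membrane-binding annexin ANXA2 had a log2 fold change of 0.57 (SE 0.13), with 223 to 308 CPM in TRT0_C and 365 to 440.5 CPM in TRT12_C. LOC100850808, listed as elafin-like, had 267, 255, 271, 163 and 150.1 CPM against 369, 377, 327, 379 and 633 CPM. Its log2 fold change was 0.91 (SE 0.20), TRT12_C replicate 5 was far above the rest, and reads that also match the related gene PI3 were not counted. GCNT3, which branches mucin O-glycans, lay within 106 to 112 CPM in TRT0_C and 123 to 199.7 CPM in TRT12_C (log2 fold change 0.53, SE 0.13). The others were 4 glycolytic enzymes, the chaperone PDIA4 and the goblet cell product CLCA1, described with their groups.

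In the other direction, 12 named genes had the smallest p among those with every TRT12_C calf below every TRT0_C calf, and none passed (edgeR adjusted p = 0.218 to 0.299). CIRBP, an RNA-binding protein induced by cold, had 77.2, 93.6, 72.4, 73 and 90.6 CPM in TRT0_C and 47.9, 59.6, 35.7, 58.1 and 40.3 CPM in TRT12_C, a log2 fold change of −0.73 (SE 0.15, −1.01 within run HI.3902.007). CLK1, a kinase of the SR splicing factors, had 109, 69.3, 67.1, 81.7 and 81.6 CPM against 46.1, 60.7, 30.2, 59.8 and 46.7 CPM, a log2 fold change of −0.73 (SE 0.18). For both genes TRT12_C replicate 3 was the lowest calf, and the TRT6_C calves had 44.3 to 106 CPM of CIRBP, across both groups, and 66.4 to 119.5 CPM of CLK1, above every TRT12_C calf. The rest included the histone acetyltransferase KAT6B (−0.39 on the log2 scale), the SWI/SNF ATPase SMARCA2 (−0.46), the zinc finger protein ZNF182 (−0.76) and ZFC3H1 of nuclear RNA decay (−0.55). KAT6B was even within each group, at 78.5 to 87.1 CPM in TRT0_C and 57.5 to 67.1 CPM in TRT12_C. The remaining genes were the peptidase NLN (−0.55), the thymocyte factor TOX (−0.50), the vesicle motor MYO5C (−0.36), the lysine-degrading enzyme AASS (−0.53) and C8H9orf43 (−0.87). RGS2 had the smallest p of the 12.

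RGS2 (ENSBTAG00000034366) speeds the shutdown of Gq-coupled receptor signals in smooth muscle and other cells. Its raw counts were 10, 19, 12, 23 and 13 in TRT0_C and 0, 3, 0, 6 and 2 in TRT12_C. In CPM, TRT0_C had 4.11, 7.84, 7.06, 9.12 and 6.85 and TRT12_C had 0, 1.08, 0, 1.98 and 1.61. All TRT12_C calves lay below all TRT0_C calves, by −6.06 CPM in the mean. The log2 fold change was −2.74 (SE 0.52), with an adjusted p of 0.218 over all genes in edgeR's quasi-likelihood test, so RGS2 did not pass there. Its call depended on the test, since edgeR's likelihood ratio and exact tests on the same calves gave adjusted p of 1.23e-05 and 1.63e-05, and the quasi-likelihood test passed it without TRT12_C replicate 4 (log2 fold change −3.34, edgeR adjusted p = 0.0889). Within run HI.3902.007 the TRT12_C calves had 0 counts, and the fitted log2 fold change of −7.09 there depends on the prior count. TRT6_C calves had 2.1 to 6.95 CPM, a range that lay above all TRT12_C calves and overlapped TRT0_C. The study named RGS2 from these calves, so its values are not independent evidence. Of 24 RGS genes listed, 3 were paired with a tested gene. RGS5, a vessel-wall member, had 119 to 224 CPM in TRT0_C and 123 to 269 CPM in TRT12_C (log2 fold change 0.055, with a minus sign at −0.040 on library totals). RGS17 was low, with 2.6 and 2.91 CPM on average (log2 fold change 0.064).

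RGS2 also differed between C and H calves in its response to feeding time. Its contrast of TRT12 with TRT0 was −2.74 in C calves and 2.51 (SE 0.68) in H calves, where TRT0_H had 0 to 1.54 CPM and TRT12_H 1.23 to 8.79 CPM. The difference between these contrasts was −5.26 (SE 0.88) in a fit of all 27 calves, with an adjusted p of 0.0255 in edgeR's quasi-likelihood test. With the run name as a further term it was −5.29 (SE 0.996) and no longer passed (edgeR adjusted p = 0.183). It was the only gene of that test to pass (0.00684% of those tested), in which 538 genes (3.68%) had an unadjusted p under 0.05. ENSBTAG00000045632, for instance, had log2 fold changes of 8.40 in C and 0.89 in H calves, and the difference had an edgeR adjusted p of 0.999.

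Direction went with expression level. When the genes tested were divided by mean CPM into 5 equal groups, the median log2 fold change in the lowest group (median 2.46 CPM) was −0.16, and 1.16% of genes had a higher and 4.69% a lower level in TRT12_C at an unadjusted p under 0.05. In the highest group (median 89.5 CPM) the median was 0.087, and the shares were 14.9% and 4.96%. Library totals without TMM factors kept the order of the 5 groups, with medians from −0.23 to 0.0035. Libraries of TRT12_C also held fewer genes at 1 CPM or more on average, 14244.2 ± 483.4 (SD) against 14826.6 ± 292.3 in TRT0_C. The ranges overlapped (13822 to 15065 against 14616 to 15328), and the part of this in the level trend was not tested.  Because symbols were at hand mostly for abundant genes, lists are read here against the genes with a symbol, of which 11.8% were higher and 3.89% lower in TRT12_C at an unadjusted p under 0.05, with a median log2 fold change of 0.083. The 34 lists examined held 358 distinct tested genes, of which 82 (22.9%) were higher and 6 lower at that p. Among the 256 of them in the group of highest level, 69 (27%) were higher, against 14.9% of all genes there. The lists were chosen with earlier results of these data known, so these shares are not independent evidence of a difference. Below, a value in parentheses after a symbol is its log2 fold change, and apart from S100A12 no list member passed the adjusted test.

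**Figure D2:**
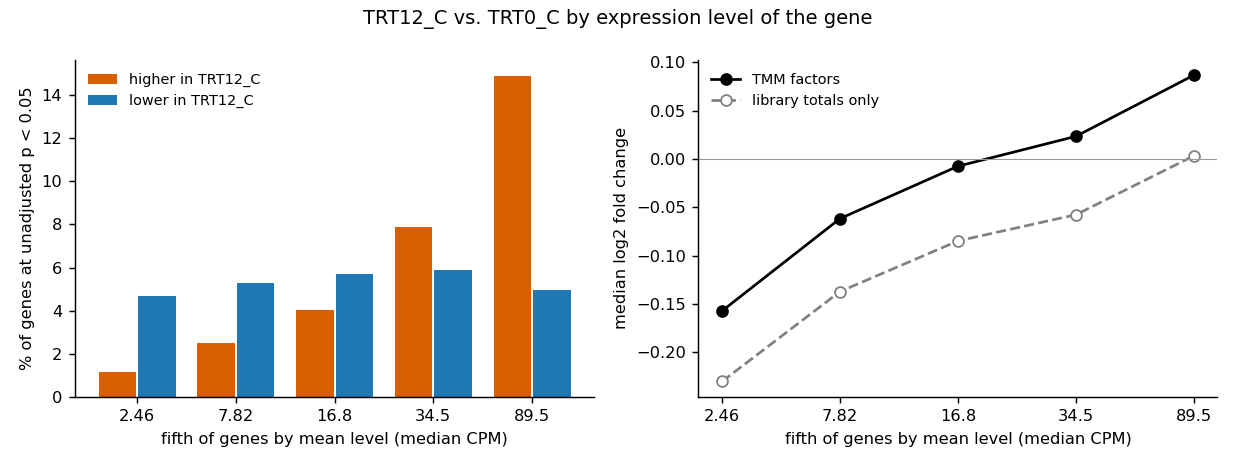
Share of genes at an unadjusted p under 0.05 in each direction (left, % of genes) and median log2 fold change of TRT12_C over TRT0_C (right, with TMM factors and with library totals only) in 5 equal groups of genes ordered by mean CPM (x axis, median CPM of the group). The share of higher genes went from 1.16% to 14.9% with level, while the share of lower genes lay between 4.69% and 5.88%.

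Of the 34 lists, glycolysis had the most members with every TRT12_C calf above the TRT0_C range. Of 23 tested genes of glycolysis and the hypoxia response, 12 were higher in TRT12_C at an unadjusted p under 0.05 and 0 lower, 20 had a log2 fold change above 0, and the groups did not overlap in 8, against 2.4% of genes with a symbol that did not overlap in this direction. The enzymes ran along the pathway, with HK1 (0.48), GPI (0.37), PFKP (0.80), PFKL (0.34), ALDOA (0.52), TPI1 (0.50), GAPDH (0.41), PGK1 (0.36), PGAM1 (0.44), ENO1 (0.53) and PKM (0.41). The hypoxia-responsive factor HIF1A (0.29) completed the 12. Genes with a symbol were higher in 11.8% and lower in 3.89% at that p, and all list genes tested were higher in 22.9%. ALDOA, which splits fructose bisphosphate, had 385, 445, 377, 444 and 399.8 CPM in TRT0_C and 633, 519, 657, 551 and 581 CPM in TRT12_C. GAPDH, often used as a reference gene, had 282, 277, 295, 293 and 262 CPM against 419, 342, 416, 351 and 349 CPM, so the lowest TRT12_C calf was above the highest TRT0_C calf for both enzymes. ENO1 lay at 264 to 332 CPM against 377 to 486 CPM (SE 0.12), HK1 at 96.1 to 128 against 138 to 169.8 CPM (SE 0.12) and TPI1 at 140.1 to 164 against 184 to 249 CPM (SE 0.12). The list's median log2 fold change was 0.29, from 0.27 to 0.34 on leaving out single calves and 0.44 within run HI.3902.007. Epithelial markers were higher in most of the same calves (median log2 fold change 0.36, 7 of 12 at an unadjusted p under 0.05), and their part in the glycolysis values was not tested. In H calves the median of the glycolysis list was 0.027. Of its 23 tested members, 2 had an unadjusted p under 0.05 for the difference between C and H, against 3.36% of genes with a symbol.

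Chaperones of the endoplasmic reticulum, which fold secreted and membrane proteins, and the heat shock proteins of other compartments were further lists with many members at an unadjusted p under 0.05. Among genes with a symbol, 11.8% were higher and 3.89% lower at that p, and among all list genes tested 22.9% were higher. Of 22 tested genes of the unfolded protein response, 12 were higher and 0 lower at an unadjusted p under 0.05, with a median log2 fold change of 0.34 (0.27 to 0.40 on leaving out single calves, 0.65 within run HI.3902.007). PDIA4, a disulfide isomerase, had 231, 214, 249, 259 and 166 CPM in TRT0_C and 412, 263, 431, 329 and 353 CPM in TRT12_C (log2 fold change 0.67, SE 0.16). TRT12_C replicate 2 was just above the TRT0_C calves, and replicates 1 and 3, the calves of run HI.3902.007, were highest. The lectin chaperone CALR had 686, 494, 685, 570.4 and 458 CPM against 1092, 642, 967, 753 and 949 CPM (log2 fold change 0.60, SE 0.17), and its groups overlapped in TRT12_C replicate 2. The others were HYOU1 (0.61), P4HB (0.53), MANF (0.63), HSP90B1 (0.62), PDIA3 (0.54), CANX (0.44), DNAJC3 (0.34), DNAJB11 (0.46), SEC24D (0.28) and PDIA6 (0.38). Sensors and transcription factors of the response are not in this count, since XBP1 was at 0.18, ATF4 at 0.095 and EIF2AK3 at −0.095 (edgeR adjusted p = 0.612, 0.79 and 0.819). CALR, PDIA3 and CANX also stand in the list of antigen presentation, where 5 of 14 genes were higher (3 to 6 on leaving out single calves) and 0 lower. Its other members at that p were the peptide loading factor TAPBP (0.36) and the proteasome activator PSME1 (0.34).

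Of 14 heat shock genes tested, all had a log2 fold change above 0, 8 were higher at an unadjusted p under 0.05 (5 to 10 on leaving out single calves) and the median was 0.40 (0.31 to 0.46 on leaving out single calves, 0.70 within run HI.3902.007). The share higher at that p was 11.8% of genes with a symbol and 22.9% of all list genes tested. HSPA1A, the stress-inducible HSP70, had 124, 222, 194, 230.1 and 147 CPM in TRT0_C and 388, 204, 304, 407 and 194 CPM in TRT12_C (log2 fold change 0.71, SE 0.22). TRT12_C replicates 2 and 5 lay within the TRT0_C range, and HSPA1A has near-identical copies, so its level is uncertain. The constitutive HSPA8 had 861, 672, 954, 829 and 620.5 CPM against 1144, 895, 1153, 1007 and 1098 CPM. The small heat shock protein CRYAB was low, at 8.21 CPM on average in TRT0_C and 15 CPM in TRT12_C (log2 fold change 0.88, SE 0.26). The remaining members at that p were HSP90AA1 (0.52), AHSA1 (0.44), FKBP4 (0.38) and the mitochondrial HSPA9 (0.37) and HSPE1 (0.41). Epithelial markers were also higher in most of the same calves. The median member of the unfolded protein list was 0.62 above the TRT0_C mean, in log2(CPM + 1), in TRT12_C replicate 3 and 0.15 in replicate 2, and that of the epithelial markers was 0.50 in replicate 3 and −0.049 in replicate 4. The part of the epithelial markers in the results for both chaperone lists was not tested.

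**Figure D3:**
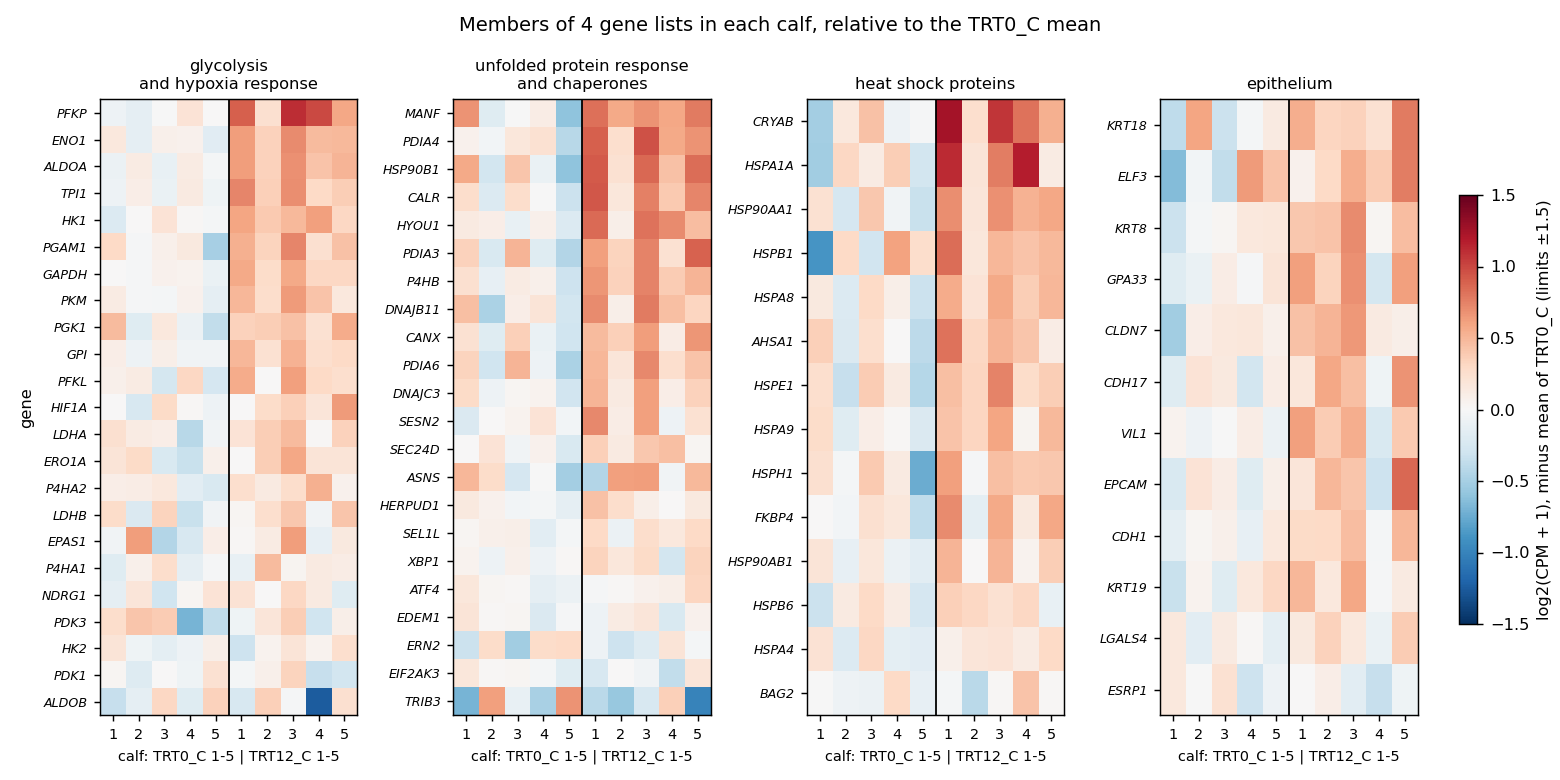
Members of 4 gene lists (rows) in each of the 10 calves (columns), coloured by log2(CPM + 1) minus the mean of the 5 TRT0_C calves, with colours limited to ±1.5 on the log2 scale. Glycolytic enzymes were above the TRT0_C mean in most TRT12_C calves, chaperones were highest in TRT12_C replicates 1 and 3, and epithelial markers were near the TRT0_C mean in TRT12_C replicate 4.

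Of 12 epithelial markers tested, none passed the adjusted test in edgeR and all overlapped between groups, while 7 were higher in TRT12_C and 0 lower at an unadjusted p under 0.05. These were KRT8 (0.41), GPA33 (0.43), VIL1 (0.37), CDH1 (0.31), KRT18 (0.41), CLDN7 (0.36) and CDH17 (0.37). Beside this stand 11.8% higher and 3.89% lower genes with a symbol, and 22.9% higher genes among all list genes tested. Summed over the list, levels were 3277 to 3958 CPM in TRT0_C and 3523 to 5206 CPM in TRT12_C, ranges that overlapped. KRT8, a keratin of simple epithelia, had 258, 317, 330.1, 360.1 and 362 CPM in TRT0_C and 429, 436, 529, 329 and 445 CPM in TRT12_C, with replicate 4 inside the TRT0_C range. On leaving out single calves, the number of markers at that p was 2 to 9, and the median log2 fold change of 0.36 was 0.29 to 0.42. With library totals in place of TMM factors the median was 0.26 and 0 markers had an unadjusted p under 0.05 in the edgeR test. Smooth muscle, the main other tissue of the colon wall, had 0 of 19 markers at that p in either direction by edgeR and a median of 0.064 (−0.030 to 0.18 on leaving out single calves). Its summed levels were 11991 to 21869 CPM in TRT0_C and 13833 to 22017 CPM in TRT12_C. The contractile genes with the smallest p were TAGLN (0.35), SYNPO2 (−0.29) and ACTA2 (0.23), at p of 0.0847 to 0.134.

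Carbonic anhydrases led the transporters and enzymes of absorptive colonocytes, where 6 of 20 genes were higher (3 to 8 on leaving out single calves), 0 lower and the median log2 fold change was 0.39 (0.32 to 0.46 on leaving out single calves, 0.46 within run HI.3902.007). At an unadjusted p under 0.05, 11.8% of genes with a symbol were higher and 3.89% lower, and 22.9% of all list genes tested were higher. CA2, which supplies bicarbonate and protons for ion exchange, had 33.7, 54.8, 76.5, 33.7 and 42.1 CPM in TRT0_C and 111, 60.7, 89.9, 226 and 78.9 CPM in TRT12_C. TRT12_C replicate 4 was far above the rest, and without it the log2 fold change of 1.26 (SE 0.31) became 0.82. CA1 had 12.7, 30.1, 157, 19.8 and 53.7 CPM against 113, 54.6, 263, 129 and 124 CPM (log2 fold change 1.35, SE 0.52), and TRT0_C replicate 3 was higher than 4 of 5 TRT12_C calves. Other members at an unadjusted p under 0.05 were ATP1B1 of the sodium pump (0.38), the chloride-loading cotransporter SLC12A2 (0.43) and the sodium-proton exchanger SLC9A2 (0.43).

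In the goblet cell list, which also holds GP2, 4 of 10 genes were higher and 0 lower at an unadjusted p under 0.05 (2 to 5 higher on leaving out single calves). The cell that makes GP2 here was not tested. Their median log2 fold change was 0.40, and 0.25 within run HI.3902.007. CLCA1, secreted with mucus, had 303, 280.0, 251, 337 and 199 CPM in TRT0_C and 342, 568, 402, 375 and 649.8 CPM in TRT12_C, without overlap (log2 fold change 0.77, SE 0.19, and 0.44 within run HI.3902.007). The zymogen granule glycoprotein GP2, an apical receptor for bacterial fimbriae, had 5.75, 1.65, 160.1, 1.98 and 6.32 CPM against 211, 281, 0, 157 and 357 CPM. It was high in 4 of 5 TRT12_C calves and in 1 TRT0_C calf, and at 0 in TRT12_C replicate 3, so its log2 fold change of 2.62 (SE 0.98) ranged from 2.29 to 5.70 on leaving out single calves, the highest without TRT0_C replicate 3. The factor KLF4 (0.41) and the trefoil peptide TFF3 (0.38) were the others. Of 5 enteroendocrine genes, 0 had an unadjusted p under 0.05 by edgeR, with NEUROD1 (0.82), SST (0.42) and CHGA (0.30) at the smallest p. In the list of crypt stem cells and proliferation, 3 of 11 were higher (2 to 5 on leaving out single calves) and 0 lower. This is near the 22.9% of all list genes tested that were higher. For the goblet cell and crypt lists alike, 11.8% of genes with a symbol were higher and 3.89% lower at that p. BIRC5, an inhibitor of apoptosis made in dividing cells, had 17.3, 14.8, 17.1, 19.4 and 13.2 CPM against 22.2, 23, 30.2, 24.1 and 37.8 CPM without overlap (log2 fold change 0.71, SE 0.19), and the replication helicase subunits MCM5 (0.70) and MCM6 (0.35) followed.

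Genes that carry immunoglobulin across epithelia are of interest because antibody is what colostrum delivers. Of 8 tested, 1 was higher and 0 lower at an unadjusted p under 0.05 (1 to 4 higher on leaving out single calves). That is near the 11.8% of genes with a symbol that were higher. The gene was RAB25, a GTPase of apical recycling, with 16, 28, 23, 23.8 and 27.4 CPM in TRT0_C and 37.4, 36.6, 43.2, 25.4 and 36.2 CPM in TRT12_C (log2 fold change 0.59, SE 0.18). The receptors that carry antibody did not reach that p, with the neonatal Fc receptor FCGRT at 0.18 (SE 0.13) and the polymeric immunoglobulin receptor PIGR at 0.18 (SE 0.24). TFRC (0.49) and RAB11A (0.34) came after RAB25, at p of 0.0606 and 0.0795. In the lists of junctions and of the epithelial wound response, 3 of 20 and 3 of 14 genes were higher and 0 lower by edgeR, against 11.8% and 3.89% of genes with a symbol. For junctions these were CDH1 and CLDN7, named above, and the catenin CTNNA1 (0.26), and on leaving out single calves the number was 0 to 6. For the wound response they were EMP1, the calcium-binding S100A2 (0.51) and the plasminogen activator PLAT (0.60). PLAT had 49.7, 61.9, 47.1, 46.4 and 112 CPM against 84.8, 126, 115, 90.2 and 60.4 CPM, and TRT0_C replicate 5 and TRT12_C replicate 5 each lay in the range of the other group.

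Lipid handling showed smaller differences. The counts in lipid and metal lists stand beside 11.8% higher and 3.89% lower genes with a symbol at an unadjusted p under 0.05. Of 23 genes of fatty acid oxidation and ketogenesis, 7 were higher and 0 lower at an unadjusted p under 0.05, with a median log2 fold change of 0.15 (0.29 within run HI.3902.007). Leaving out single calves gave 3 to 8 higher genes and medians of 0.067 to 0.27, and library totals gave 4 and 0.073. FABP1, which binds fatty acids in absorptive cells, had 482, 325, 627, 459.7 and 452 CPM in TRT0_C and 908, 735, 762, 557 and 725 CPM in TRT12_C (log2 fold change 0.65, SE 0.17). TRT12_C replicate 4 was again lowest of its group and inside the TRT0_C range. The mitochondrial enzymes were ACADVL (0.37), CPT2 (0.39), ACAA2 (0.33), HADHA (0.32), ACSL5 (0.29) and CPT1A (0.28). In cholesterol synthesis and uptake, 5 of 22 were higher and 0 lower, with a median of 0.21 (0.45 within run HI.3902.007). Among them were the sterol enzymes EBP (0.50) and NSDHL (0.46), the desaturase SCD (0.60) and the transcription factor SREBF2 (0.32). The count and median of the cholesterol list were near those of all list genes tested (22.9% higher, median 0.197). EBP did not overlap between groups, at 11.5 to 15.5 CPM against 17.7 to 21.3 CPM. Iron and metal handling held a gene in each direction among 14, and leaving out single calves gave 0 to 6 higher ones. The divalent metal transporter SLC11A2, the uptake route of dietary iron, had 248, 615, 79.4, 255 and 454 CPM in TRT0_C and 95.7, 227, 208, 82.9 and 229 CPM in TRT12_C (log2 fold change −0.98, SE 0.40). It spread widely in both groups, and TRT0_C replicate 3 was the lowest of all 10 calves. The ferric reductase CYBRD1 had a log2 fold change of 0.54 (SE 0.23).

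Among 16 antimicrobial and epithelial defence genes, 3 were higher and 1 lower at an unadjusted p under 0.05, against 11.8% and 3.89% of genes with a symbol. Besides S100A12 these were PI3 (elafin), an inhibitor of neutrophil elastase, and the lysozyme LYZ1. PI3 had 827, 433, 805, 557 and 409.8 CPM in TRT0_C and 872, 1142, 1034, 907 and 1166 CPM in TRT12_C, without overlap (log2 fold change 0.76, SE 0.20, edgeR adjusted p = 0.256). LYZ1 had 232, 210.3, 192, 123 and 108 CPM against 255, 244, 274, 288 and 213 CPM (log2 fold change 0.56, SE 0.19), and as one of several lysozyme genes it may share reads with others. GSDMC, of the pore-forming gasdermin family, was the lower one, with 136, 153, 94.7, 133 and 144 CPM against 79.2, 99.9, 87.8, 102 and 70.1 CPM (log2 fold change −0.58, SE 0.14). Its groups overlapped through TRT0_C replicate 3. S100A12 was the only neutrophil or calgranulin marker that could be paired with a tested gene, so its cell of origin cannot be told.

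Mast cell and T cell markers were scarce, and none passed the adjusted test. HDC, which makes histamine, had 0.411, 3.71, 3.53, 1.59 and 3.16 CPM in TRT0_C and 0.87, 1.08, 1.37, 0.33 and 0 CPM in TRT12_C (log2 fold change −1.63, SE 0.64), levels at or near that of 3 counts. The tryptase TPSB2 had 5.75, 3.3, 6.47, 5.95 and 5.79 CPM against 2.61, 2.52, 4.12, 4.29 and 2.42 CPM (log2 fold change −0.74, SE 0.33). These were the 2 of 4 mast cell genes at an unadjusted p under 0.05, while the peptidase CPA3 had a log2 fold change of 0.14 and the IgE receptor chain FCER1A one of −0.55 (SE 0.64). At that p, 3.89% of genes with a symbol were lower. In the group of lowest level 4.69% of genes were lower and 1.16% higher. CD8A, of cytotoxic T cells, had 5.34, 4.54, 1.77, 5.55 and 6.85 CPM against 0.435, 2.87, 1.37, 2.97 and 0.805 CPM (log2 fold change −1.35, SE 0.47), with overlap through TRT0_C replicate 3. Its level in TRT12_C replicates 1, 3 and 5 was below that of 3 counts. Of 27 T and NK cell markers listed, the only other one tested was TRAT1 (−0.56, edgeR adjusted p = 0.74). Macrophage and dendritic cell genes had 0 of 4 at that p in the edgeR test, with CSF1R (0.24), XCR1 (0.29) and TYROBP (0.076) at the smallest p, and the single B and plasma cell gene tested was XBP1.

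Many signalling genes of immunity could not be paired with a tested gene. Those tested were 11 of 54 listed chemokines and receptors and 14 of 84 cytokines and receptors. Of pattern recognition and NF-kB genes 3 of 51 were tested, and of interferon stimulated genes 4 of 49. The counts below stand beside 11.8% higher and 3.89% lower genes with a symbol at an unadjusted p under 0.05. Of 11 chemokines and receptors, CCL16 (0.83) was the only one at that p, with 3.58 against 2.05 CPM on average, while the chemokine CCL14 had 7.81, 12, 11.2, 4.36 and 5.27 CPM in TRT0_C and 5.66, 4.31, 5.49, 4.29 and 8.05 CPM in TRT12_C. Its log2 fold change of −0.59 (SE 0.33) had an adjusted p of 0.509 in edgeR's test, and its groups overlapped. CXCL14 was at 0.36. Of 14 cytokines and receptors, the TNF receptor TNFRSF1A (0.28) was the only one at an unadjusted p under 0.05, without overlap at 68.9 to 75.8 CPM against 77.3 to 95.4 CPM, ahead of IFNGR2 (0.23) and TNFRSF21 (0.19). Pattern recognition and NF-kB genes had 0 of 3 at that p by edgeR (NFKBIB 0.48, CLEC7A 0.38 and NFKB2 0.083), interferon stimulated genes 0 of 4 (PARP14 0.12, IRF1 0.10 and IFIT2 0.26) and glucocorticoid response genes 0 of 8 (HSD11B1 −0.77, FKBP5 0.25 and ERRFI1 0.37). Of 8 immediate early genes, the factor KLF10 had 60.8, 48.3, 70, 66.2 and 51.6 CPM against 86.1, 86.6, 102, 68.1 and 105 CPM (log2 fold change 0.58, SE 0.15), and the survival gene MCL1 was at 0.37.

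Stromal lists had few members at an unadjusted p under 0.05, where 11.8% of genes with a symbol were higher and 3.89% lower. Of 19 fibroblast and matrix genes, VIM, the intermediate filament of mesenchymal cells, was the only one at an unadjusted p under 0.05, with 285 to 336 CPM in TRT0_C and 347 to 472 CPM in TRT12_C (log2 fold change 0.36, SE 0.12). FBLN1 (0.41) and COL14A1 (−0.23) followed, and the median was 0.14. In H calves the median of the same genes was −0.45, and 10 of the 19 had an unadjusted p under 0.05 for the difference between C and H, against 3.36% of genes with a symbol, although none passed after adjustment. Endothelial genes had PLVAP (0.37) higher among 5, with KDR (0.17) and VWF (0.15) next. IGFBP7 (0.29) was the only one of 10 genes of growth factor receptors and the IGF axis at that p, ahead of IGFBP3 (0.25) and PDGFRB (−0.14). Enteric neurons and glia had 0 of 5 by edgeR (SNAP25 0.16), and the adipocyte genes ADIPOQ (0.28) and LPL (0.16) had SE of 0.43 and 0.25.

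**Figure D4:**
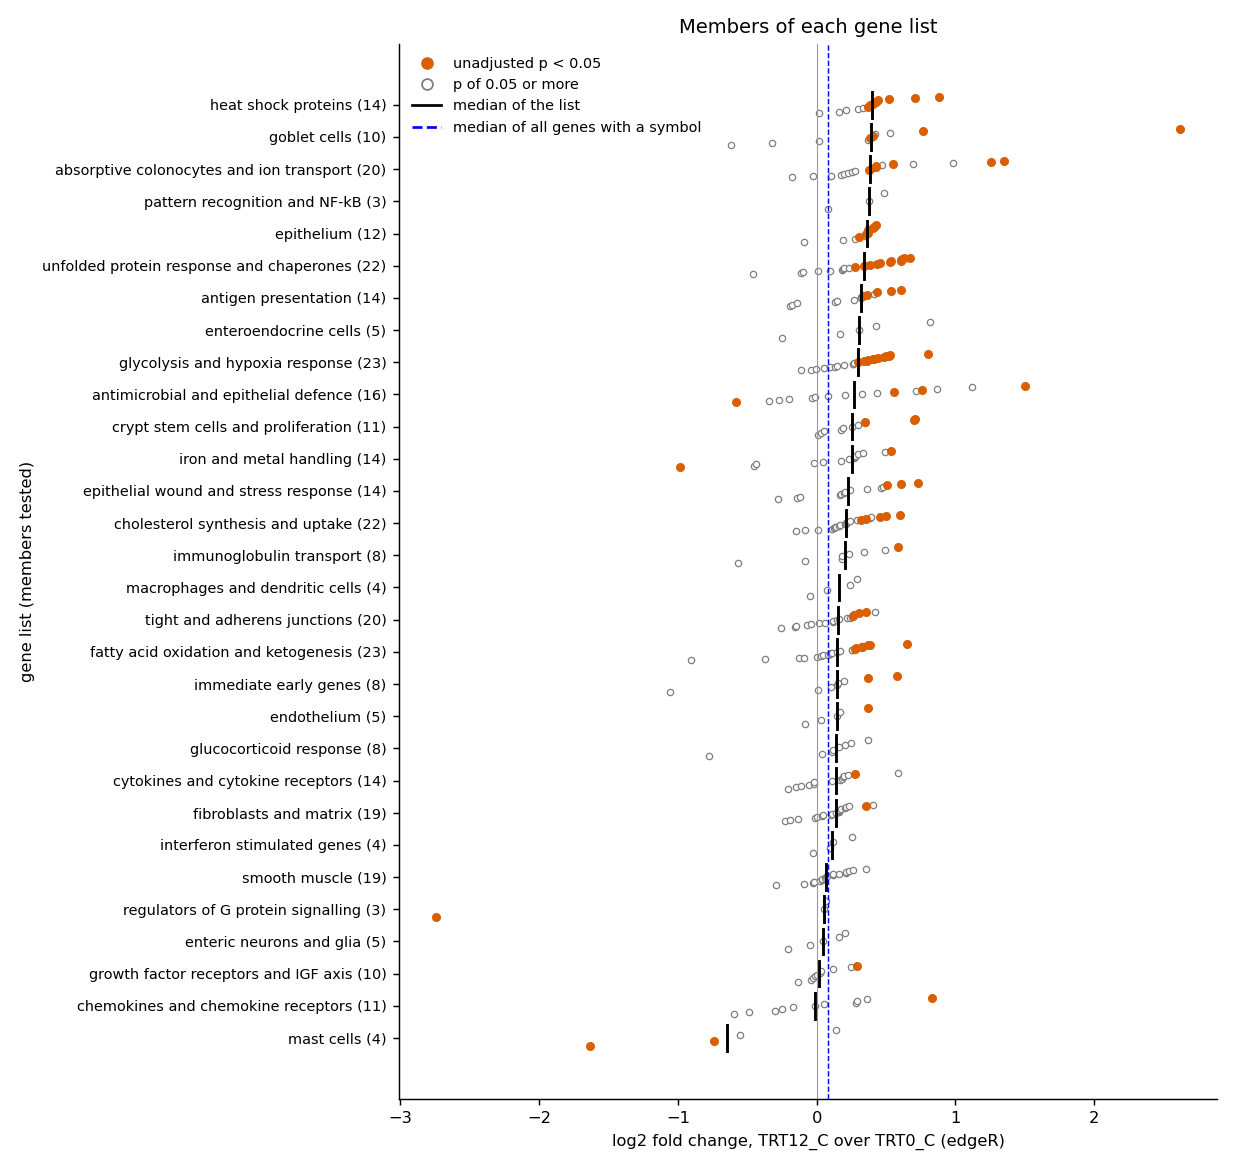
Log2 fold change of TRT12_C over TRT0_C (x axis) for the tested members of the 30 gene lists with 3 or more of them (y axis, number in parentheses), filled where the unadjusted p was under 0.05, with the list median as a bar and the median of all genes with a symbol as a dashed line. Medians went from −0.65 for mast cells to 0.40 for heat shock proteins, and the members furthest from 0 were RGS2 at −2.74 and GP2 at 2.62.

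Over all genes, the separation of the groups did not pass a p of 0.05. Of the squared distance between the 10 calves in log2(CPM + 1), 15.2% lay between TRT12_C and TRT0_C against a mean of 11.1% over the 252 ways of dividing them (exact one-sided permutation test, p = 0.0556). With values scaled per gene the share was 16.4% (exact permutation p = 0.0476), and on CPM without TMM factors 14.9% (exact permutation p = 0.135). Leaving out single calves gave 14.7% to 19.4%, and the share passed an exact permutation p of 0.05 without TRT12_C replicate 2 (17.4%), TRT12_C replicate 4 (19.4%) or TRT0_C replicate 3 (17.9%), each with an exact permutation p of 0.0317.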

How the data were processed

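RNA of colon tissue from 27 male Holstein calves was sequenced as paired-end reads from TruSeq RNA v2 libraries by the authors, and 10 calves enter the comparison. The values are raw gene counts as the authors deposited them, in 1 table. Their totals per calf are far below the reads per sample that the paper reports, and the cause of this was not tested. Reads had been filtered for chastity with CASAVA, aligned with TopHat2 2.1.1 to the bovine build UMD3.1, sorted with SAMtools 1.4 and counted per Ensembl gene with HTSeq-count, which left out reads assigned to several genes, so genes with close copies can be undercounted. The strand setting is not given in the sources used here, and reads of overlapping or antisense genes cannot be told apart.

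Counts were fitted with edgeR 4.0.16 in R 4.3.3 (glmQLFit and glmQLFTest, TMM factors) on 5 TRT12_C and 5 TRT0_C calves for genes at 1 CPM or more in at least 5 of the 10. A gene passed at an adjusted p (Benjamini-Hochberg over all 14616 genes tested) of at most 0.1 and a fold of at least 1.2. The difference between C and H calves was tested as an interaction in a fit of all 27 calves. Permutation tests were exact. The fitting script was tested on simulated counts first. The alternatives were other tests (DESeq2 1.42.0 among them), scalings, filters and calf selections. The robust dispersion and the leave-out and single-run values of the gene lists were added after seeing the data. The share of reads mapped, taken from the study's table of calves, was a term in 1 alternative.

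Symbols were taken from the study's own gene tables, which paired 4046 identifiers. Genes are named if they passed, if they were among the 12 of smallest p in each direction without overlap between groups, if they were list members at an unadjusted p under 0.05 (in lists with fewer than 2 of these, up to 3 members of smallest p), or if they were RGS2, CCL14, PFKP, EMP1 or S100A12. A few more list members (CPA3, FCER1A, FCGRT, PIGR, ATF4 and EIF2AK3) are given after their values were seen. Some genes that meet this rule are not reported here, though counts over lists include them. The members and lists were chosen with earlier results of these data known. Dam parity came from the study's table of calves, since the sample labels do not give it. Within groups, all 20 pairs of calves differed by more than counting noise (chi-square per degree of freedom 3.78 to 17.3), so each calf counted as 1 sample.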

Additional observations from a re-analysis of the deposited data

Results flagged for a closer look

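In 17 of 276 groups of calves examined for the named genes, the highest or lowest calf stood far from the others, in that its gap to the nearest calf was large against the whole range of the group (Dixon's test, by whose design about 1 in 20 groups pass by chance). S100A12 was lowest in TRT12_C replicate 2 at 57.8 CPM, with the others at 76.2 to 79.7 CPM. Also in TRT12_C, LOC100850808 was 633 CPM in replicate 5 (others 327 to 379 CPM), IFIT2 was 10.5 CPM in replicate 5 (others 1.98 to 3.48 CPM) and SREBF2 was 195 CPM in replicate 2 (others 254 to 275 CPM).

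The other 13 were in TRT0_C, and 6 of them were in replicate 3. GP2 was 160.1 CPM there (others 1.65 to 6.32 CPM), CA1 157 CPM (12.7 to 53.7 CPM), HADHA 154 CPM (117 to 125 CPM), MCM6 76.5 CPM (45.8 to 53.8 CPM), AASS 31.2 CPM (20 to 21.8 CPM) and XCR1 4.71 CPM (0.411 to 1.65 CPM). In replicate 1, ZFC3H1 was 208 CPM (others 159.8 to 172 CPM), ACAA2 102 CPM (81.6 to 86.1 CPM) and CLDN7 128 CPM (194 to 207 CPM). In replicate 5, PLAT was 112 CPM (46.4 to 61.9 CPM) and COL14A1 171 CPM (204 to 217 CPM). In replicate 2, ATP1B1 was 138 CPM (179 to 193 CPM) and TPSB2 3.3 CPM (5.75 to 6.47 CPM).

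The contrast of TRT12 with TRT0 differed between C and H calves for RGS2, by −5.26 on the log2 scale (SE 0.882, adjusted p = 0.0255 in edgeR's quasi-likelihood test), with all 5 TRT12_C calves below all 5 TRT0_C calves. With the run name as a term it was −5.29 (SE 0.996) and did not pass (edgeR adjusted p = 0.183).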

How the results depend on the processing

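The number of genes that passed was 2. It was 66 in edgeR's likelihood ratio test, 67 in its exact test, 194 in DESeq2, 23 with no filter, 1 with 1 CPM or more in all 10 calves, 1 with robust dispersion, 0 with all 27 calves in the fit (1423 at an unadjusted p under 0.05), 241 with the run name as a term among 10 calves and 4 with it among 27, 1181 in run HI.3902.007 alone and 0 to 206 on leaving out single calves. It stayed at 2 under the other scalings and with the share of reads mapped as a term. Genes at an unadjusted p under 0.05 numbered 3107 in run HI.3902.007 alone and 1143 to 2403 on leaving out single calves. The share of variance was 16.4% with values scaled per gene and 14.7% to 19.4% on leaving out single calves. The difference between C and H calves called 0 genes with the run name as a term by edgeR.

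RGS2 passed at −2.74 on the log2 scale in the likelihood ratio and exact tests, at −2.75 with no filter, at −7.13 with the run name as a term among 10 calves and at −7.09 in run HI.3902.007 alone, and ranged from −3.34 to −2.42 on leaving out single calves. Of the 138 named genes, 10 changed sign under some alternative, none of them at an unadjusted p under 0.05 in the comparison as reported. With the run name as a term among 10 calves and in run HI.3902.007 alone, ERRFI1 was −0.0703 and −0.0784, TNFRSF21 −0.0678 and −0.0682, SNAP25 −0.14 and −0.139 and NFKB2 −0.155 and −0.164. With the run name as a term among 27 calves, SNAP25 was −0.0565 and ADIPOQ −0.0117. On library totals NFKB2 was −0.0137 and RGS5 −0.0401. Leaving out single calves gave −0.0495 to 0.222 for IRF1, −0.234 to 1.01 for IFIT2, −0.11 to 0.169 for RGS5, −0.157 to 0.46 for TYROBP and −0.22 to 0.405 for RGS17. The cause of these changes was not tested. No paired analysis was possible because the replicate numbers only name calves in accession order. Depth limits genes near 3 counts per calf, such as HDC, CD8A and RGS2 in TRT12_C.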
